A study of Mus musculus with 4 samples.

Results

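Genes for chaperones of the cytosol and of mitochondria were followed in thymocytes of mice with a hypomorphic Atg16l1 allele. The set held 34 genes chosen by name, for HSP70, HSP90 and small heat shock proteins, J-domain proteins, the mitochondrial chaperonin, co-chaperones, the CCT chaperonin and heat shock factors. Each gene was represented by its brightest probe set over the 4 arrays among those annotated with 1 gene symbol. Such a probe set was present for 31 of the 34 genes, out of 18193 genes named by the arrays. Hsp90ab1 and Hsf1 had none, and the 2 probe sets of Ptges3 also carry a pseudogene's symbol, so these 3 genes were not analysed here. Of the 31, 28 passed the filter on dim probe sets and were tested, and Hspa1a, Hspb1 and Bag3 did not pass it.

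Chaperones bind unfolded or partly folded proteins and release them in cycles driven by ATP. HSP70 proteins receive their clients from J-domain proteins and are reset by nucleotide exchange factors, HSP90 takes over part of these clients with the help of co-chaperones, and the ring-shaped chaperonins enclose a protein while it folds. Heat shock factors switch on many of these genes when misfolded proteins accumulate, and autophagy, for which Atg16l1 is needed, is another route by which cells clear such proteins.

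Total RNA of unsorted thymus cells (total thymocytes in the labels) was measured on Affymetrix arrays, with 1 array per animal. There were 2 arrays of Atg16l1 hypomorph mice and 2 of control mice, which the labels also call wild-type, and the series text gives an age of 7 weeks for both groups. That text lists a male and a female in each group and describes the animals as independent, but no label assigns a sex to an array. The labels name neither the kind of allele nor the strain, and a hypomorph keeps part of the gene's function. In such mixed tissue, fewer cells of a type and less RNA per cell cannot be told apart.

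Atg16l1 itself had deposited signals of 108 and 70.8 in the hypomorphs against 184 and 241 in the controls, or 2.98-fold lower on centred arrays (log2 change -1.57 ± 0.18 SE, adjusted p 0.0142 in limma). All 13 thymocyte markers with a probe set, among them CD3 chains and Rag1, were bright enough to be tested. Median deposited signals ranged from 23.5 to 38.4 between arrays, so log2(signal + 2.29) was shifted to the same median on all arrays, and every log2 value below is on this scale. After centring, the 10232 tested genes still had a median log2 change of 0.21 (hypomorph minus control), a median that was 0.02 with quantile normalization, 0.02 with cyclic loess, 0.04 with centring on the tested probe sets and 0.54 on uncentred values. Changes are therefore also given relative to that median.

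None of the 28 tested chaperone genes passed the threshold of 0.05 on the adjusted p in limma, where 0.0489% of all tested genes did. Their adjusted p-values ran from 0.208 to 0.940, and 9 of the 28 had an unadjusted p under 0.05, all higher in the hypomorphs. Of all tested genes 18.3% had such a p in that direction and 0.909% in the other. All 28 log2 changes were above 0, from 0.06 to 0.51, but 8 of them were below 0 with quantile normalization. The median change of the 28 was 0.24, which is 0.03 above that of all tested genes, and 17 of the 28 lay above it. With single arrays left out, the difference of 0.03 ran from 0.0012 to 0.094. The count of 9 was 1 with cyclic loess, 1 with centring on the tested probe sets and 3 without the variance trend. It was 15 with the higher pseudocount of 8.44 and 18 on uncentred values, where the median change of all tested genes was 0.54. The share of all tested genes with such a p was not computed for these alternatives, so these counts are not set against other genes. With quantile normalization the count was 3 (Cct8, Hspa8 and Hsp90aa1), where 3.42% of all tested genes had such a p.

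**Figure D1:**
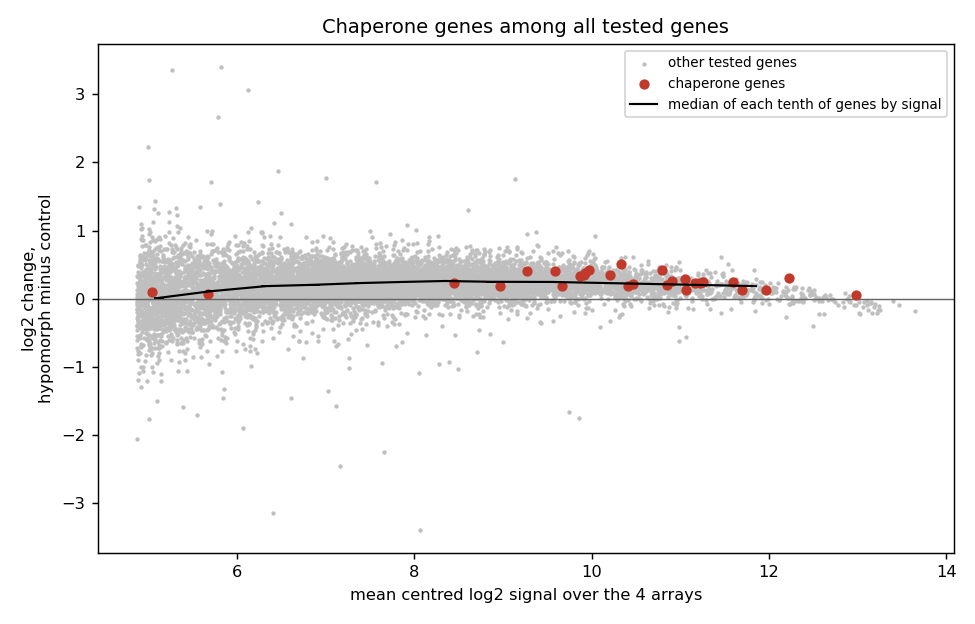
Log2 change (hypomorph minus control, vertical axis) against mean centred log2 signal (horizontal axis) for all 10232 tested genes, with the 28 chaperone genes in red. The black line joins the medians of 10 equal parts of the genes by signal, and 24 of the 28 chaperone genes lie in the 2 brightest parts.

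Most of these genes were bright, as 24 of the 28 fell in the 2 brightest of 10 equal parts of the tested genes by signal. In those parts the median log2 changes of all genes were 0.25 and 0.19. Against the median of the genes of like signal, in their own part, 19 of the 28 were higher, where 50% of all tested genes were, and their median difference was 0.06. All 9 genes with an unadjusted p under 0.05 were among the 24 bright ones, where 25.7% of all genes of those parts had such a p. After centring, both hypomorphs lay above both controls for 24 of the 28 genes, and the groups overlapped for Hspa1b, Hspa8, Dnaja1 and Hsf2. That separation was common on these arrays, at 51.7% of all tested genes, with 4.93% separated the other way. In the 2 brightest parts, which held 22 of the 24 separated genes, the share was 65.8%. With quantile normalization both hypomorphs lay above both controls for 12 of the 28 and below them for none, against 21.2% and 15.5% of all tested genes.

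Among the HSP70 genes, Hspa8 encodes the constitutive cytosolic HSP70, which also delivers proteins to lysosomes in chaperone-mediated autophagy. Its log2 signals were 12.83 and 13.19 in the hypomorphs and 12.94 and 12.95 in the controls. The control arrays lay between the hypomorph arrays, and the log2 change was 0.06 ± 0.18 (SE; 95% interval -0.33 to 0.45), with an adjusted p of 0.874 in limma. With quantile normalization the order was different, with both hypomorphs above both controls and a change of 0.15. On the dimmer Hspa8 probe sets the changes were 0.14, 0.43 and 0.75, with adjusted p-values in limma of 0.632, 0.287 and 0.196. The deposited signals of the probe set at 0.43 were 7512 and 4090 in the hypomorphs and 3288 and 3264 in the controls. After centring these were 12.48 and 12.06 against 11.95 and 11.74, so both hypomorphs lay above both controls, with hypomorph replicate 1 the highest.

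The inducible HSP70 genes were dim. Hspa1a had deposited signals of 24.6 and 9.11 in the hypomorphs and 11.7 and 13.1 in the controls, with overlap between the groups. Hspa1b had 101 and 30.8 in the hypomorphs and 56.1 and 31.4 in the controls, so that in both groups the array numbered 1 was the higher. Its log2 change was 0.08 ± 0.42 (SE), and that interval, -0.86 to 1.01, is the widest among the 28. It was -0.52 without hypomorph replicate 1 and -0.42 without control replicate 2. The 2 genes are close copies, so their probes may not separate them.

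The HSP110-type genes encode exchange factors that reset HSP70. Hspa4 had log2 signals of 10.11 and 10.10 in the hypomorphs and 9.71 and 9.77 in the controls, and Hsph1 had 10.19 and 9.97 against 9.67 and 9.80. In neither gene did the groups overlap. Their changes were 0.37 ± 0.13 and 0.34 ± 0.14 (SE), or 0.16 and 0.13 above the median of all tested genes, with adjusted p-values in limma of 0.250 and 0.284. Hspa4l, the third of this type, was at 0.23 ± 0.14, close to that median. Hspa9, the mitochondrial HSP70, had 9.56 and 9.40 in the hypomorphs and 9.13 and 9.02 in the controls, a change of 0.40 ± 0.13 (adjusted p 0.247 in limma). With quantile normalization the groups overlapped for Hspa9 and Hsph1, and the changes were 0.16 and 0.10. The family median relative to all tested genes was 0.08, and 0.24 without hypomorph replicate 2.

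Hsp90aa1, the stress-responsive cytosolic HSP90, gave near-identical values within each group on centred arrays. Its log2 signals were 12.38 and 12.39 in the hypomorphs and 12.08 and 12.07 in the controls. The groups did not overlap, and the change was 0.31 ± 0.15 (SE), or 1.24-fold, with an adjusted p of 0.320 in limma. Relative to all tested genes it was 0.10 higher, and 0.20 higher with quantile normalization. There the hypomorphs were further apart, at 12.49 and 12.21, against 12.16 and 12.10 in the controls. On centred arrays the next 2 Hsp90aa1 probe sets by signal were at 0.22 and 0.43.

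J-domain proteins bring clients to HSP70 and start its ATP cycle. On their brightest probe sets they lay, as a family, near the other genes, with a median of -0.03 relative to all tested genes. Of the 5 genes, 1 was above the median of all tested genes. Dnaja1, a partner of Hspa8, had log2 signals of 12.00 and 12.08 in the hypomorphs and 11.81 and 12.00 in the controls. The groups overlapped, and the change was 0.13 ± 0.15 (SE). Dnajb6, which holds back protein aggregation, was the member above the median: its signals were 10.05 and 10.03 against 9.67 and 9.75, without overlap, a change of 0.33 ± 0.13 (adjusted p 0.279 in limma). Dnaja2, Dnajb1 and Dnajb4 were at 0.12, 0.18 and 0.19. With quantile normalization these 3 were at -0.05, -0.03 and -0.05. On centred arrays the other tested probe set of Dnajb1 was at 0.27, and those of Dnajb4 were at 0.42 and 0.56. Those of Dnaja1 were at 0.15 and 0.29, and those of Dnaja2 ran from 0.06 to 0.40. The place of these genes against the median thus depended on the probe set.

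The mitochondrial chaperonin consists of HSP60, a ring encoded by Hspd1, and HSP10, its lid, encoded by Hspe1. The genes lie head to head on mouse chromosome 1, in the RefSeq annotation of GRCm38.p6. Start sites are at 55087932 for Hspd1 (minus strand) and 55088148 for Hspe1 (plus strand), and a further Hspd1 start site lies beyond that of Hspe1. The 215 bases between 55087932 and 55088148, at chr1:55087933-55088147 (plus strand), are shown because both genes share them as promoter for these start sites. Capitals mark matches to GAANNTTC or TTCNNGAA, the paired units of the heat shock element that heat shock factors bind, and each pattern is its own reverse complement.
Hspd1-Hspe1: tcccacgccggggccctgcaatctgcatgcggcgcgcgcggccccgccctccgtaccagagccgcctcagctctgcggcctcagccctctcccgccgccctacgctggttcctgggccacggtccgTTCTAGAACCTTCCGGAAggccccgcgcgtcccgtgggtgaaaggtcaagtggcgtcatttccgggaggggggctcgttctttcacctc
The stretch held 3 overlapping matches in a row. Hspd1 had log2 signals of 11.10 and 10.91 in the hypomorphs and 10.50 and 10.66 in the controls. Hspe1 had 10.37 and 10.39 in the hypomorphs and 9.93 and 10.13 in the controls. Both hypomorphs were above both controls in each gene, and control replicate 1 was the lowest array in both. The changes were 0.43 ± 0.14 (SE), or 1.35-fold, for Hspd1 and 0.35 ± 0.13, or 1.28-fold, for Hspe1, with adjusted p-values in limma of 0.247 and 0.275. The other Hspe1 probe set was at 0.38. Relative to all tested genes the median of the pair was 0.18, 0.09 without hypomorph replicate 1, and 0.26 without hypomorph replicate 2. Atg16l1 is also on chromosome 1, with Hspd1 227 and Hspe1 226 places away in the order of the genes named by the arrays.

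**Figure D2:**
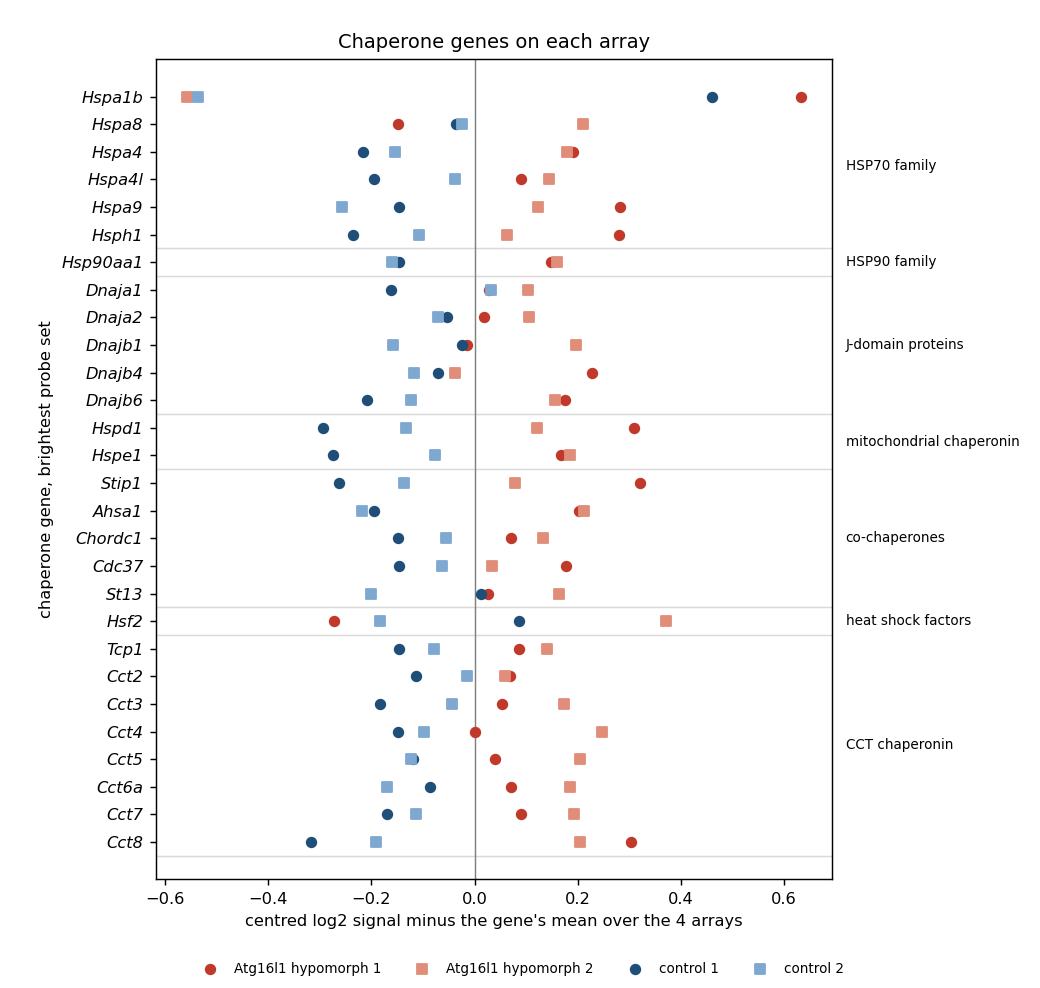
Centred log2 signal of each tested chaperone gene on each array, minus the gene's mean over the 4 arrays (horizontal axis), by family. Red and light red are the hypomorph arrays and dark and light blue the control arrays, which are apart for 24 of the 28 genes; Hspa1b is high on both arrays numbered 1.

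Co-chaperones guide clients between HSP70 and HSP90 and set the pace of HSP90. Stip1, the adaptor that holds HSP70 and HSP90 together, had log2 signals of 9.91 and 9.67 in the hypomorphs and 9.33 and 9.45 in the controls. Ahsa1, which speeds the ATPase of HSP90, had 10.18 and 10.19 in the hypomorphs and 9.78 and 9.76 in the controls. Neither gene had overlap between the groups, and the changes were 0.40 ± 0.14 and 0.41 ± 0.13 (SE), with adjusted p-values in limma of 0.254 and 0.242. With quantile normalization the groups overlapped for Stip1, at a change of 0.16, and not for Ahsa1, also at 0.16. The other Ahsa1 probe set, which was dimmer, was at 0.07. Chordc1, which encodes an HSP90-binding protein, had 10.92 and 10.98 against 10.70 and 10.79, a change of 0.20 ± 0.13. It lay at the median of all tested genes, as did Cdc37, the co-chaperone that brings kinases to HSP90, at 0.21. On its brightest probe set St13, an HSP70-binding protein, was also near it, at 0.19. The other tested St13 probe sets were at 0.36 and -0.11. Bag3, an exchange factor that directs HSP70 clients to autophagy, was below the filter, with deposited signals of 37.9 and 23.8 in the hypomorphs and 22.7 and 7.78 in the controls. After centring its groups overlapped, at 4.94 and 4.77 against 4.91 and 3.40. Hspb1, a small heat shock protein, was also below the filter, at deposited signals of 40.3 and 26.5 in the hypomorphs and 8.18 and 45.5 in the controls. Its controls thus lay on either side of the hypomorphs.

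The CCT chaperonin is a ring of 8 different subunits that folds actin and tubulin. All 8 genes were tested, and for each of them both hypomorphs were above both controls after centring, as for 65.8% of all genes in the 2 brightest parts, where all 8 lie. Cct8 had the largest change of the 28 chaperone genes, with log2 signals of 10.63 and 10.54 in the hypomorphs and 10.01 and 10.14 in the controls. That is a change of 0.51 ± 0.13 (SE; 95% interval 0.22 to 0.80), or 1.42-fold, with an adjusted p of 0.208 in limma, and 0.0994 to 0.719 over the alternatives. It is the 1 gene of the 28 whose interval, not adjusted for the number of genes, lay above the median of all tested genes, where 2.56% of all tested genes had such an interval. The gene's change was above that of 92.5% of them. Cct8 had 1 further probe set, which was not tested, with deposited signals of 4.83 and 0.872 in the hypomorphs and 7.12 and 11.2 in the controls. When the pair was averaged the change was -0.53.

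On their brightest probe sets the other 7 subunits stayed close to the bulk of the genes. Cct2 was at the low end, with log2 signals of 11.77 and 11.76 in the hypomorphs and 11.59 and 11.69 in the controls. The change of Cct2 was 0.13 ± 0.14, which is below the median of all tested genes. Tcp1, Cct3, Cct5, Cct4, Cct6a and Cct7 were at 0.23, 0.23, 0.24, 0.25, 0.26 and 0.28, each with an SE of 0.13 to 0.15. The median of the 8 was 0.03 above that of all tested genes, and 7 of the 8 lay above it. Leaving out control replicate 1 gave 0.077, and leaving out control replicate 2 gave 0.0012. With quantile normalization the groups overlapped for Cct2, Cct3 and Cct6a, and Cct8 was at 0.29 (adjusted p 0.719 in limma). Further tested probe sets of some subunits gave higher changes on centred arrays. Those of Cct2 were at 0.26 and 0.28, above the median of all tested genes, and those of Cct6a and Cct7 at 0.42 and 0.47. The further probe sets of Cct3 ran from -0.19 to 0.50, and those of Cct4 from -0.10 to 0.63.

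**Figure D3:**
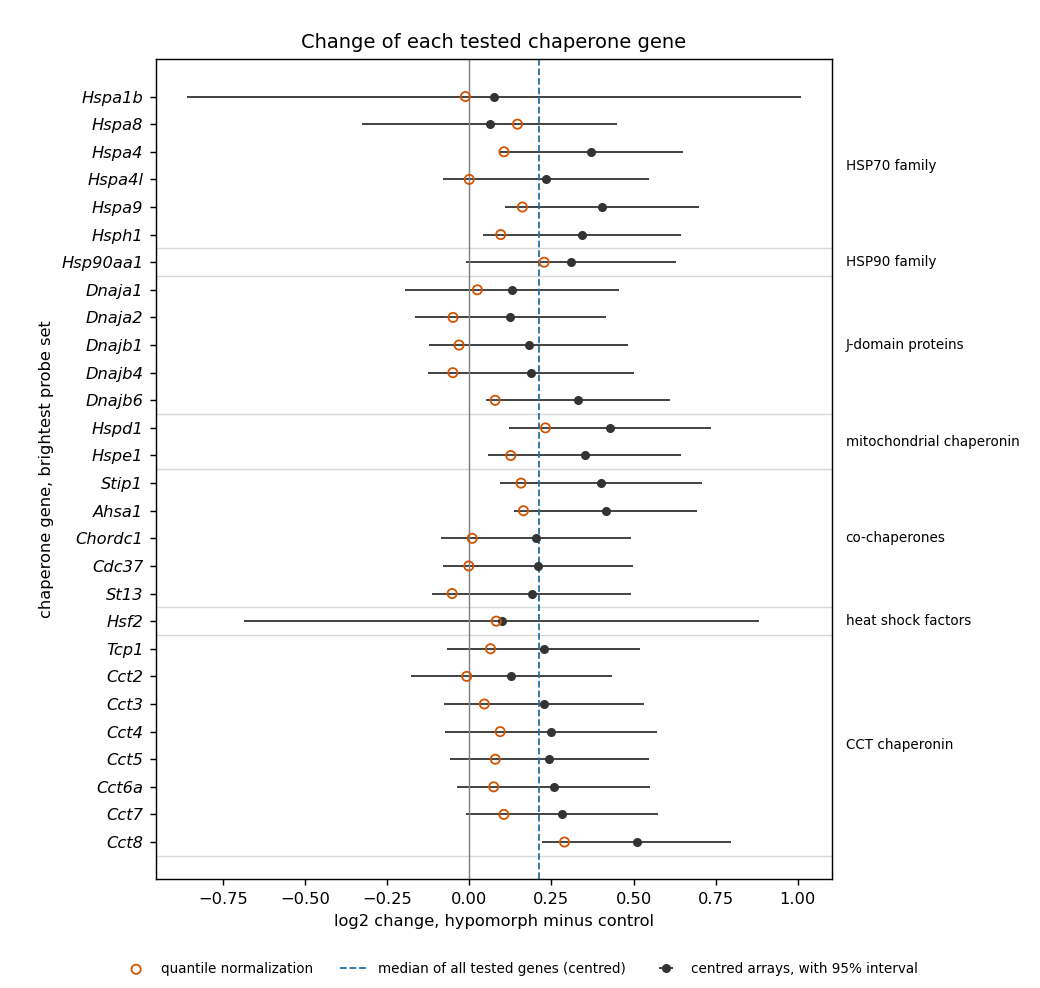
Log2 change of each tested chaperone gene (hypomorph minus control, horizontal axis) with its 95% interval in limma on centred arrays (black, n = 2 arrays per group) and the value with quantile normalization (open orange). The dashed line is the median of all tested genes, 0.21, and the interval of Cct8 is the 1 that lies above it.

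Of the heat shock factors, Hsf2 was measured at low signal. Its deposited signals were 33.4 and 38.3 in the hypomorphs and 26.7 and 25.4 in the controls. After centring, the values were 4.76 and 5.41 against 5.12 and 4.85, so the groups overlapped, and the change was 0.10 ± 0.36 (SE). It was -0.22 without hypomorph replicate 2. Hsf2 had 1 further probe set, which was not tested, with deposited signals of 5.16 and 3.75 in the hypomorphs and 8.06 and 9.33 in the controls. When the pair was averaged the change was -0.47.

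The promoters were read for the element that heat shock factors bind. A window of 300 bases, 250 before and 50 after the start site, was found for 27 of the 34 genes in the RefSeq table of GRCm38.p6. There was none for Hspa8, Hspa9, Hsp90aa1, Hsp90ab1, Cct4, St13 and Hsf1, so the comparison by promoter below leaves these genes out. Each window was searched on both strands for the paired units above and for 3 units in a row, GAANNTTC followed by NNGAA or TTCNNGAA followed by NNTTC, which contain them. The 27 genes had 36 windows, and a gene was counted if any of its windows matched. Paired units were found in 15 of the 27 genes (55.6%), against 17.0% of all genes of the table. For 3 units the count was 5 of 27 (18.5%), against 0.662% of all genes, and the genes were Hspd1, Hspe1, Hsph1, Dnajb6 and Chordc1. Hspd1 and Hspe1 share the same stretch between the start sites whose bases are shown above, so it is counted for both genes. The window of the further Hspd1 start site, at chr1:55088194-55088493 (minus strand), held no match. Upstream of Dnajb6, at chr5:29735648-29735897 (plus strand), the 3 units lay shortly before the start site. The sites of Hsph1, at chr5:149636280-149636308 (minus strand), and of Chordc1, at chr9:18292260-18292288 (plus strand), lay at or just past it. They are shown because these genes carry the longest matches, which the capitals mark.
Dnajb6: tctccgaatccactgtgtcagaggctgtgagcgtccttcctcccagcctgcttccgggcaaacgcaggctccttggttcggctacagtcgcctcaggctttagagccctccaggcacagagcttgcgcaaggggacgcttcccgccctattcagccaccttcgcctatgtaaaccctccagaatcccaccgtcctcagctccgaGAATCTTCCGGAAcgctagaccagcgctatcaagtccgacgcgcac
Hsph1: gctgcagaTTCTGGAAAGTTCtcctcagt
Chordc1: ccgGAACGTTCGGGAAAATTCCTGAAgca
The 5 genes with 3 units had log2 changes of 0.20 to 0.43, with a median of 0.34, or 0.13 above that of all tested genes. The 7 tested genes with paired units alone had changes of 0.08 to 0.26, with a median of 0.19. For the 11 tested genes with no match in the window the range was 0.10 to 0.51 and the median 0.23, and Cct8, Ahsa1, Stip1 and Hspa4 were among them. The ranges of the groups overlapped. A match of letters describes the window only.

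The near-identical promoters of Hspa1a and Hspa1b, the genes for inducible HSP70, are set beside each other because both genes were dim. The 250 bases before the start sites, at chr17:34972157-34972406 for Hspa1a and chr17:34959239-34959488 for Hspa1b (minus strand), were identical at 247 bases (98.8%) and held 1 match each, in capitals.
Hspa1a: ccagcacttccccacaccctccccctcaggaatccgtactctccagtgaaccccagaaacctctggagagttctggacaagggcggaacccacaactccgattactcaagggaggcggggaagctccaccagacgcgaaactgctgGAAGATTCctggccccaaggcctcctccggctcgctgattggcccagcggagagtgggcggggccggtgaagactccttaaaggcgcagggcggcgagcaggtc
Hspa1b: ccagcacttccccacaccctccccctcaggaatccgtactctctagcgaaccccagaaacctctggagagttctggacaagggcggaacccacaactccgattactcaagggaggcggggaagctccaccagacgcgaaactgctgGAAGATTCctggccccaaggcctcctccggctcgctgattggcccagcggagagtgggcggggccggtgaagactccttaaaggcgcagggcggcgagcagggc

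The probe sets of a gene gave different changes in many cases. The 28 genes had 45 further tested probe sets, of which 38 had a change of the same sign as the brightest, and 24 lay on the same side of the median of all tested genes. None of the 45 passed the threshold in limma. The 3 further probe sets of Dnajb6 all lay above that median, at 0.38 to 0.53 beside 0.33 for the brightest. Those of Hspa4 were spread from -0.32 to 0.91 beside 0.37. For Hspa9 the range was -0.71 to 0.53, and the lowest value came from a dim probe set with deposited signals of 50.6 and 19.6 in the hypomorphs and 25.1 and 69.1 in the controls.

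**Figure D4:**
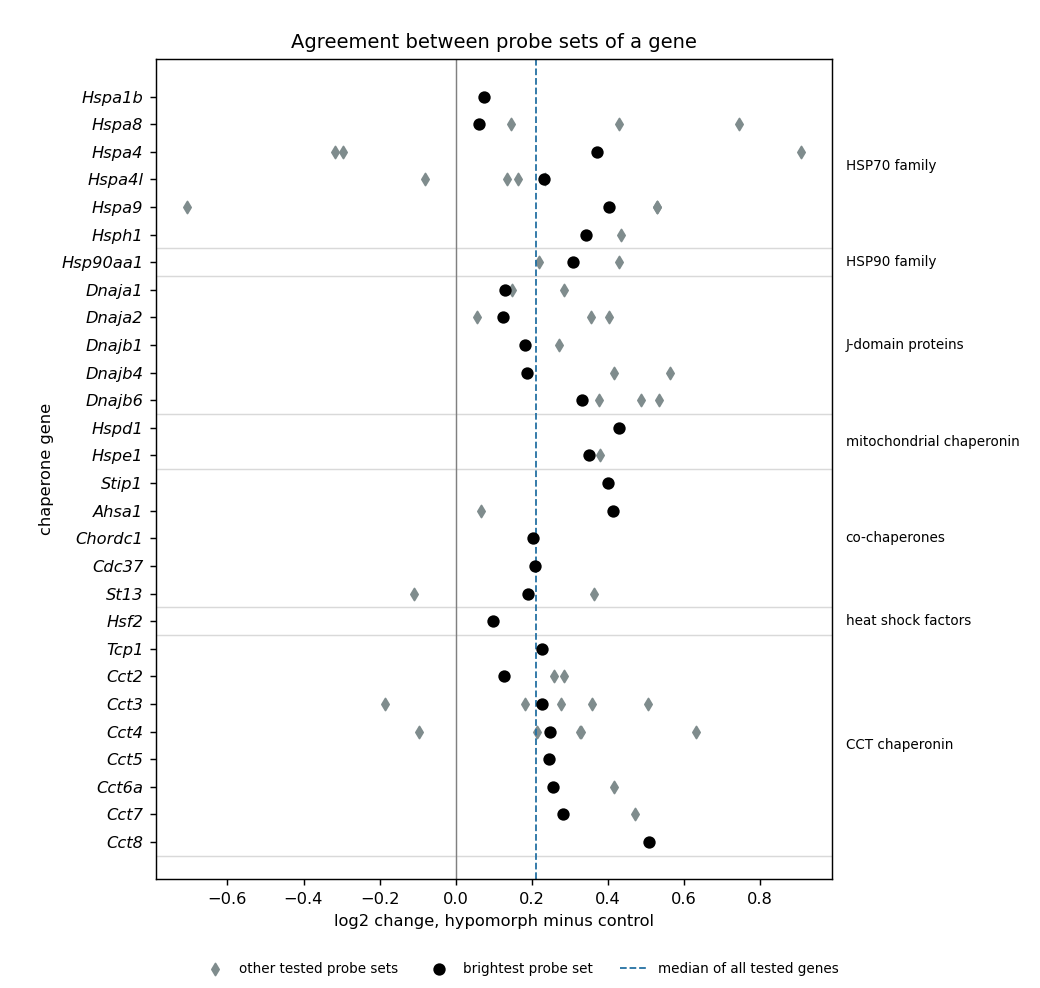
Log2 change (hypomorph minus control, horizontal axis) of the brightest probe set of each chaperone gene (black) and of its other tested probe sets (grey diamonds). The dashed line is the median of all tested genes, and 24 of the 45 other probe sets lie on the same side of it as the brightest.

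Further chaperone genes were read from 6 lists, and none of their 89 tested genes passed the threshold. Exchange factors and HSP90 co-chaperones had a median of 0.12 relative to all tested genes, with 19 of 25 above the median. An unadjusted p under 0.05, higher in the hypomorphs, was found for 10 of these 25, against 18.3% of all tested genes. In the lists that follow, such a p was found for 5 of 15 mitochondrial quality control and 4 of 24 J-domain genes. The count was 5 of 14 for prefoldin and CCT cofactor genes and 2 of 5 for HSP70 and small heat shock genes. For regulators of heat shock factors and further HSF1 targets it was 0 of 6. Among the co-chaperones Fkbp5 and Fkbp4, immunophilins that bind HSP90, were at 0.55 ± 0.14 and 0.47 ± 0.14 (SE; adjusted p 0.208 and 0.242 in limma). Mitochondrial quality control genes had a median of 0.11, with 12 of 15 above. There Grpel1, the exchange factor of the mitochondrial HSP70, had deposited signals of 772 and 498 in the hypomorphs and 293 and 331 in the controls. After centring Grpel1 was at 0.66 ± 0.14 (SE; adjusted p 0.159 in limma). Lonp2 was at 0.49 ± 0.16 and is included in the counts and median of this list, although it encodes a peroxisomal protease. Prefoldin and CCT cofactor genes had a median of 0.06, with 10 of 14 above, and the smallest p-values were those of Pdcl and Pfdn1, at 0.49 and 0.45. Other J-domain genes had a median of -0.04 with 10 of 24 above, and Dnajc17 and Dnajc2 were at 0.44 and 0.40. Other HSP70 and small heat shock genes were mostly dim, with 5 of 13 tested and a median of 0.05, where Hspb6 was at 0.86 ± 0.29 and Hspa13 at 0.44 ± 0.16. Regulators of heat shock factors and further targets of HSF1 had a median of -0.10 with 2 of 6 above, among them the autophagy receptor gene Sqstm1 at 0.29 ± 0.13 (adjusted p 0.320 in limma) and Hsbp1, which encodes a protein that binds HSF1, at 0.23.

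Lists for other processes and cell types in the tissue are given beside the chaperone genes, and their part in the values above was not tested. None of their genes passed the threshold in limma. Cell cycle genes had a median of 0.35 relative to all tested genes with 16 of 19 above, and their summed centred signal was 29724 and 32422 in the hypomorphs against 23424 and 23767 in the controls. Immediate early genes, which respond to tissue handling, had a median of -0.12 with 2 of 11 above, and sums of 10883 and 13019 against 11559 and 12279. Thymocyte markers had a median of -0.12 with 5 of 13 above, with sums of 34894 and 40304 against 33849 and 38710. B cell markers had a median of -0.69 with 1 of 7 above, with sums of 520 and 516 against 668 and 788. For macrophage and dendritic cell markers these were -0.49 and 0 of 12, with sums of 3798 and 3664 against 4734 and 4242. Granulocyte markers had a median of 0.28 with 5 of 6 above, but the sum was 651 on control replicate 1, 5804 on control replicate 2, and 2229 and 3709 in the hypomorphs. Thymic stroma markers had 3 of 10 tested genes, a median of -0.00 and sums of 304 to 332 on all 4 arrays, and none of the 3 erythroid markers with a probe set was bright enough to be tested, with sums of 22.1 to 43.8.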

How the data were processed

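The authors deposited 1 linear intensity, a signal, for each probe set. Per the submitters' processing notes it came from GCOS (Affymetrix), and no version or scaling target is named there. The table had 45101 probe sets, and 64 controls were dropped. Of the rest, 34945 carried 1 gene symbol in the platform annotation, 932 several and 9160 none. The pseudocount in log2(signal + 2.29) was the 10th percentile of the signals, so changes of dim genes are understated, and arrays were centred because their medians spanned 0.66, above a limit of 0.3. The 22519 probe sets with a mean log2 value at or above the median were compared between groups with limma 3.58.1 in R 4.3.3 (variance trend, two-sided), with Benjamini-Hochberg adjustment over all of them at 0.05. The fit was tested on simulated data. With 2 arrays per group an exact permutation test cannot go below 0.333, and the number of arrays limits precision.

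The members and lists were chosen with earlier results of these data known. All members are named, array values are given for the 10 with the smallest p, the brightest of each family and those below the filter, and from each further chaperone list the 2 genes with the smallest p. Lists of other cell types and processes are given by counts and sums. Array values of Hspa1b, Grpel1 and single further probe sets were added after their values were seen. The brightest probe set was taken as the highest mean of the 4 deposited columns. Promoter letters are from RefSeq, GRCm38.p6, and protein sequences were not used here. Alternatives were quantile and cyclic loess normalization, no centring, centring on the tested probe sets, pseudocounts of 1 and 8.44, no filter, a filter at the 75th percentile, no variance trend, the mean of all probe sets, a replicate block and leaving out each array.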

Additional observations from a re-analysis of the deposited data

How the results depend on the processing

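No chaperone gene was called in any of the 15 alternatives run on single genes, and 388 of 418 values for single genes kept their sign. With no array left out, calls were few among all genes too, from 0 without the variance trend to 28 of 10232 on uncentred values. With the replicate number as a block 0 chaperone genes were called, where 4 of 10232 genes were. As without the block, 9 chaperone genes had an unadjusted p under 0.05. The numbers were not taken as pairs, since deviations of arrays with the same number correlated at 0.08 over the tested probe sets. The 30 values that turned below 0 were as follows, and the cause was not tested. Centred on the tested probe sets, the values were Cct2 at -0.046, Dnaja1 at -0.043, Dnaja2 at -0.049, Hsf2 at -0.075, Hspa1b at -0.099 and Hspa8 at -0.11. Cyclic loess gave Cct2 at -0.041, Dnaja1 at -0.030, Dnaja2 at -0.061, Dnajb1 at -0.020, Dnajb4 at -0.042, Hspa1b at -0.0048, Hspa8 at -0.063 and St13 at -0.028. Quantile normalization gave Cct2 at -0.0081, Cdc37 at -0.0017, Dnaja2 at -0.050, Dnajb1 at -0.031, Dnajb4 at -0.050, Hspa1b at -0.012, Hspa4l at -0.000196 and St13 at -0.052. Averaging all probe sets of a gene gave Cct8 at -0.53, Hsf2 at -0.47 and Hspa1b at -0.048. With single arrays left out Hspa1b ran from -0.52 (without hypomorph replicate 1; -0.42 without control replicate 2) to 0.67, Hsf2 from -0.22 (without hypomorph replicate 2; -0.036 without control replicate 2) to 0.42, and Hspa8 was at -0.12 without hypomorph replicate 2.

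Relative to all tested genes, the median of the members was 0.03. Without the filter the same 28 members were set against 18193 genes, whose median change was 0.15, and their relative median was 0.088. With single arrays left out the relative median of the members was 0.0012 to 0.094, highest without control replicate 1. Their number above the median, 17, was 14 to 23 in those fits. Against genes of like signal, an alternative added after seeing the data, the median was 0.06 and the number 19. The CCT median was 0.095 relative to the 18193 genes without the filter, and 0.0012 to 0.077 with single arrays left out. There the co-chaperone median ran from -0.014 to 0.14, the HSP70 median from -0.0067 to 0.24 and the J-domain median from -0.10 to 0.054. Averaging all probe sets of a gene gave medians of -0.65 for Hsf2, -0.031 for HSP70, -0.067 for Hsp90aa1 and 0.052 for J-domain genes, and with quantile normalization that of Hsp90aa1 was 0.20. A fit with 1 array in a group assumes that it varies like the other group. The filter at the 75th percentile leaves out Hsf2 and Hspa1b. Signals near background limit Hspa1a, Hspa1b, Hspb1, Bag3 and Hsf2.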
